A study of Homo sapiens with 6 samples.

Results

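The cytochrome P450 (CYP), UDP-glucuronosyltransferase (UGT) and cytosolic sulfotransferase (SULT) genes were examined in a brain-metastatic lung cancer line with and without silencing of AKR1B10. Members were the protein-coding genes of the deposited table whose symbols begin with CYP and a digit, with UGT1, UGT2 or UGT8, or with SULT and a digit, CYP51A1 being left out. This gave 88 of 58735 genes, of which 55 were CYP, 20 UGT and 13 SULT genes. The rule itself uses names and biotype, and the families were picked with earlier results of these data known.

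Cytochrome P450 enzymes insert oxygen into drugs, carcinogens, steroids, retinoids and fatty acids, with electrons handed on by NADPH-cytochrome P450 reductase or, in mitochondria, by ferredoxin. UGT enzymes join glucuronic acid and SULT enzymes join sulfate to such oxidised or phenolic compounds, which makes them easier to excrete. Liver and gut carry most of this capacity, while lung epithelium is known for a smaller set of these enzymes, and CYP1B1 is known from many tumours.

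PC9-BrM3 is a derivative of the human lung adenocarcinoma line PC9, taken from brain metastases after repeated passage through immunodeficient mice. RNA was sequenced from 3 BrM3-shAKR1B10 libraries (PC9-BrM3 cells with shRNA vector 1 against AKR1B10) and from 3 BrM3-shNC libraries (the same cells with a negative control shRNA), all from routine culture. The labels give the controls the genotype WT, although they too carry an shRNA vector. A single shRNA in a single line was compared here, so effects of this shRNA on other transcripts cannot be told apart from those of silencing AKR1B10. The labels give replicate numbers and do not say whether these were separate cultures, so p-values measure the spread between these libraries, which may be technical.

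AKR1B10 stood at 108, 107 and 110 FPKM in the BrM3-shAKR1B10 libraries and at 799, 775 and 772 FPKM in the BrM3-shNC libraries, a log2 fold change of -2.85 ± 0.03 (SE; limma adjusted p = 1.59e-07). FPKM divides reads by gene length and by library depth, so FPKM levels can be compared between genes. The libraries held 16964504 to 18709028 reads on genes, and 3 reads, taken as the smallest readable amount, equal 0.163 to 0.177 FPKM for a gene of 1000 bases. Of 10 epithelial and lung adenocarcinoma markers 6 reached a mean of 1 FPKM (KRT19, KRT8, KRT18, KRT7, EPCAM and CDH1), whereas NKX2-1, NAPSA, SFTPB and SFTPC did not. The summed level of 6 fibroblast markers was 1.20 to 1.37 FPKM in BrM3-shAKR1B10 and 2.03 to 2.08 in BrM3-shNC. COL1A1 alone of these had a mean of 1 or more, and COL1A2 and DCN were at 0. The sum of 4 endothelial markers was 2.10 to 2.37 in BrM3-shAKR1B10 and 1.52 to 1.79 in BrM3-shNC, with KDR at 0 and CDH5 alone at a mean of 1 or more. Leukocyte markers summed to at most 1.36, brain markers to at most 0.165 and hepatocyte markers to at most 0.0389 FPKM. The part of these shifts in the results was not tested.

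Detection was read first, from the mean over all 6 libraries. Among the 88 members, 21 had a mean of at least 1 FPKM and were tested, and a further 12 had a mean of at least 10 reads per library and were detected below that level. Another 32 members held traces, with a mean of at most 8 reads, and 23 had no read in any library, among them the read-through row CYP3A7-CYP3A51P. By family, 25 of 55 CYP genes, 5 of 13 SULT genes and 3 of 20 UGT genes were tested or detected. No member was at 0 in every library of one group with at least 3 reads in every library of the other.

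CYP4F11 and CYP1B1 stood above all other members in both groups. The 4 highest members made up 63.0% of the summed FPKM of the 88 in BrM3-shAKR1B10, where CYP4F3 and SULT1A1 came next, and 55.7% in BrM3-shNC, where SULT1A2 and SULT1A1 came next. Summed CYP levels were 148 ± 2.36 FPKM (SD, n = 3) in BrM3-shAKR1B10 and 105 ± 0.957 in BrM3-shNC. Without CYP1B1 these sums were 108 and 92.9. Summed SULT levels were 27.9 ± 0.681 against 24.4 ± 0.178 FPKM, and summed UGT levels 12.2 ± 1.32 against 14.8 ± 0.552 FPKM. In none of the 3 families did the libraries of the groups overlap in this sum.

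**Figure D1:**
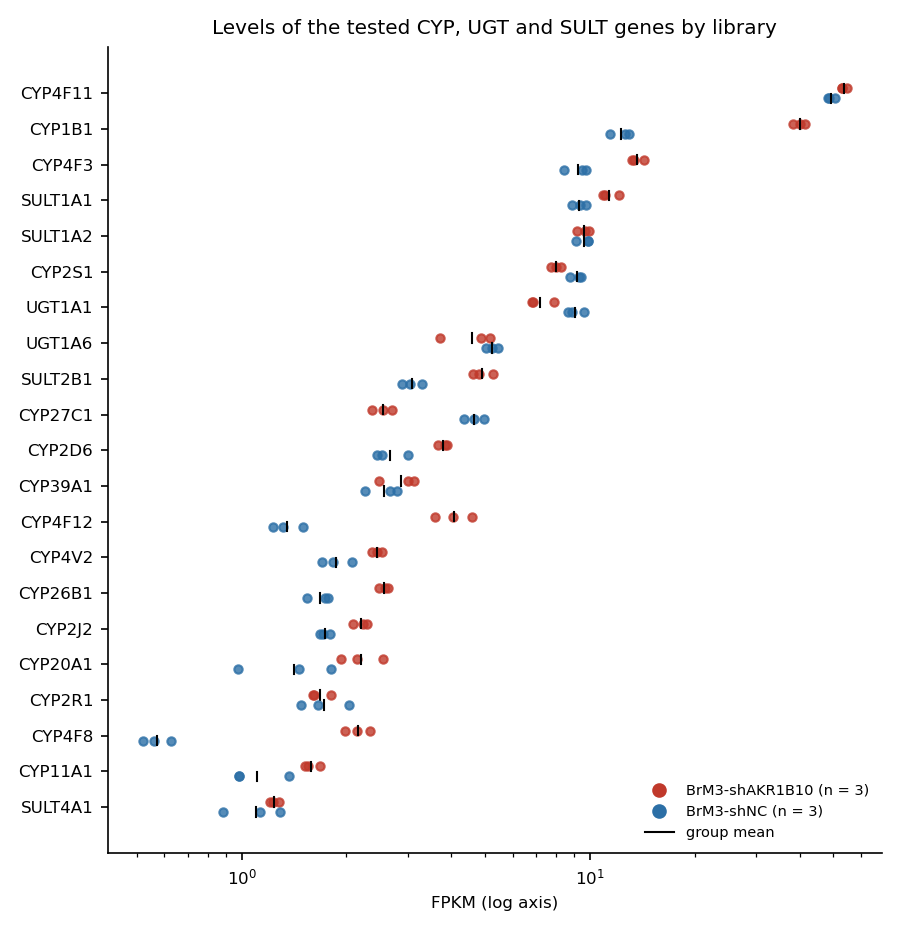
FPKM on a log axis for the 21 tested members, ordered by mean level, with 1 point per library and a black bar at each group mean. CYP4F11 leads with little distance between the groups, while CYP1B1, CYP4F12 and CYP4F8 show the groups widely apart.

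The comparison asks which members differ in level between silenced and control cells. A gene counts as called where limma on log2(FPKM + 0.1), fitted over 13150 genes, put its adjusted p below 0.05 and its log2 fold change beyond 0.5 in either direction. Of the 21 tested members 7 were called higher in BrM3-shAKR1B10, against a background of 5.83% of all genes tested, and 1 was called lower, against 7.45%. Groups did not overlap for 16 of the 21, where the background was 54.7%. Irrespective of the size of the change, 12 of the 21 had an adjusted p below 0.05 and a higher level (background 19.4%) and 3 a lower level (23.1%), and with a fold threshold of 1 on the log2 scale 3 were called higher (1.28%). The tested members had a median log2 fold change of 0.33 and a median absolute change of 0.37, while over all genes tested these were -0.01 and 0.20. CYP4F8 is counted in each of these values although its control mean was below 1 FPKM, so that it passed the filter only through the silenced libraries and had to differ. Without it, 6 of 20 members were called higher and 1 lower, 2 of the higher ones passed a log2 fold change of 1, the median log2 fold change was 0.31 and the median absolute change 0.35. With bulk RNA, fewer cells expressing a gene and less RNA per cell cannot be told apart.

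**Figure D2:**
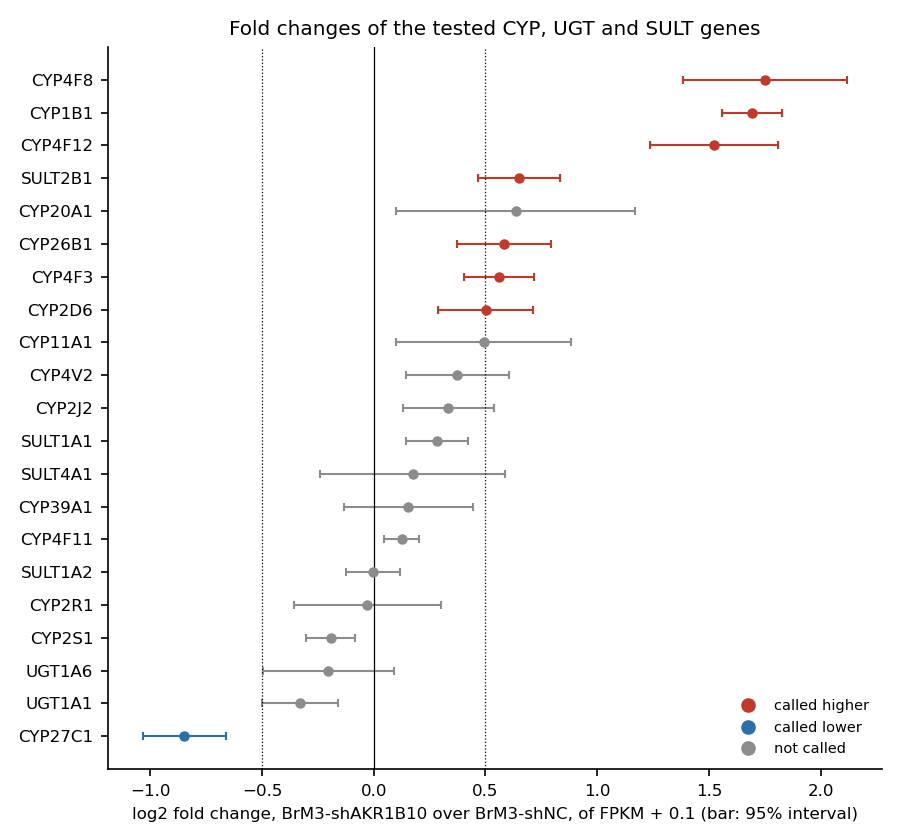
Log2 fold change of FPKM + 0.1 with its 95% interval for the 21 tested members. CYP4F8, CYP1B1 and CYP4F12 stand beyond 1, SULT2B1, CYP26B1, CYP4F3 and CYP2D6 pass the dotted line at 0.5 by less, and CYP27C1 alone passes -0.5. CYP20A1 at 0.64 also lies past 0.5 and is not called.

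CYP1B1 (ENSG00000138061), which oxidises polycyclic hydrocarbons and estradiol and is a classical target of the aryl hydrocarbon receptor, rose with the smallest adjusted p of all members. Its position is chromosome 2 (GRCh38), from 38066973 to 38109902, minus strand. CYP1B1 stood at 41.6, 38.4 and 40.1 FPKM in the BrM3-shAKR1B10 libraries and at 12.6, 11.4 and 12.9 FPKM in the BrM3-shNC libraries. The groups were far apart, with the lowest silenced library well above the highest control. The log2 fold change was 1.69 ± 0.06 (SE; limma adjusted p = 1.04e-05), or 3.25-fold in mean FPKM. Genes on the opposite strand (CYP1B1-AS1, RMDN2) cover 12.9% of its exonic bases, and whether counting used the strand is not stated. Their own counts were far smaller, at a mean of 93 reads in silenced and 60.3 in control libraries for CYP1B1-AS1 and 112 and 91 for RMDN2, against 1162 to 4418 reads for CYP1B1.

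The other CYP1 genes were scarcely seen. CYP1A1, the best known target of the same receptor and named here after its values were seen, reached 1, 2 and 2 reads with the shRNA against AKR1B10 and 0, 0 and 1 with the control shRNA. CYP1A2 had no read in any library.

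CYP4F genes encode hydroxylases of leukotrienes, prostaglandins and long-chain fatty acids. Their 6 protein-coding members lie on chromosome 19 between 15508493 and 15934867, a block of 426 kb with 27 annotated genes. They are not all adjacent, since the block holds 21 other genes, among them UCA1 between CYP4F12 and CYP4F2. CYP4F8, CYP4F3 and CYP4F12 were called higher, CYP4F11 was not called, CYP4F2 held a mean of 5.83 reads and CYP4F22 had none. The gene starts of 3 of them are shown because they share a block and an ancestry yet differ in fold change. Each line runs from 250 bases before to 50 bases after the gene's start in RefSeq (GRCh38.p14), and capitals mark the match to TGACNNNGC, the core of the antioxidant response element, searched on both strands. The windows are chr19:15614968-15615267 (plus strand), chr19:15641062-15641361 (plus strand) and chr19:15934818-15935117 (minus strand).
CYP4F8: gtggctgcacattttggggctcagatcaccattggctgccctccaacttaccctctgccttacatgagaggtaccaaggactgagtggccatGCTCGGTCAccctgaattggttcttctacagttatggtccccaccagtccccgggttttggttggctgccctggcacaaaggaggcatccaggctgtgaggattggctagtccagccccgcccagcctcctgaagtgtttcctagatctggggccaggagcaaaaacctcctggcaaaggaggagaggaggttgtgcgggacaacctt
CYP4F3: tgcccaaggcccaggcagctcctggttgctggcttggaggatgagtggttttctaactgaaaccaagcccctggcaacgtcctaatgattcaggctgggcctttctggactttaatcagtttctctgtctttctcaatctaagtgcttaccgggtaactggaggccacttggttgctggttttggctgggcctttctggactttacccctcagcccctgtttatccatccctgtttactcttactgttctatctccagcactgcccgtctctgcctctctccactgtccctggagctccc
CYP4F11: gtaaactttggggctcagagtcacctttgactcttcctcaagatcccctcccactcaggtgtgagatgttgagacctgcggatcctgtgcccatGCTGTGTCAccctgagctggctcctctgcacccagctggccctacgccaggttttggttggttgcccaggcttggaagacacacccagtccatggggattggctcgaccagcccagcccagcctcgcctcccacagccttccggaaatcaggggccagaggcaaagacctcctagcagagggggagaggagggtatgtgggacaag

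The CYP4F8 and CYP4F11 windows were identical at 73.0% of 282 aligned bases and held 1 match each. CYP4F8 was called and CYP4F11 was not. The CYP4F3 window held no match and was identical to that of CYP4F11 at 57.1% of aligned bases. TGACNNNGC occurred in 13.3% of all 35116 RefSeq windows of this length and in 13.8% of the 65 members with a window. It occurred in 3 of the 15 windows of tested members (20%) and in 1 of the 5 of called members (20%). GCGTG, the core letters of the aryl hydrocarbon receptor element, also searched on both strands, occurred in 36.5% of all windows, 29.2% of the members' windows and 6 of the 15 windows of tested members (40%). Of the 8 called members 5 had a window here, and among these SULT2B1 alone held GCGTG, at 2 places. The RefSeq start used for SULT2B1, and that for CYP27C1, did not match the first bases of any GENCODE 29 transcript of the gene. CYP1B1, CYP4F12 and CYP2D6 were not searched. These are matches of letters and say nothing of binding.

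CYP4F8 (ENSG00000186526), a prostaglandin hydroxylase known from seminal vesicles, stood at 1.98, 2.15 and 2.34 FPKM in BrM3-shAKR1B10 and at 0.626, 0.562 and 0.521 FPKM in BrM3-shNC. The groups were far apart, with a log2 fold change of 1.75 ± 0.15 (SE; limma adjusted p = 0.000257). With a pseudocount of 1 the same gene gave 1.01, below CYP1B1 (1.62) and CYP4F12 (1.11). All its control values were below 1 FPKM, so it entered the test through its level in the silenced cells. CYP4F12 (ENSG00000186204), which hydroxylates fatty acids and the antihistamine ebastine, stood at 4.60, 4.06 and 3.58 FPKM against 1.23, 1.32 and 1.51 FPKM. Its groups did not overlap either, and its log2 fold change was 1.52 ± 0.12 (limma adjusted p = 0.000163).

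CYP4F3 (ENSG00000186529), the omega-hydroxylase that inactivates leukotriene B4, had higher levels and a smaller difference. It stood at 14.3, 13.4 and 13.2 FPKM in BrM3-shAKR1B10 and at 9.77, 9.50 and 8.43 FPKM in BrM3-shNC, with no overlap (log2 fold change 0.56 ± 0.06, limma adjusted p = 0.000802). The third BrM3-shNC library was the lowest, and without it the log2 fold change was 0.497, just under the threshold. CYP4F11 (ENSG00000171903), a hydroxylase of long-chain fatty acids and vitamin K, was the most abundant of all members at 53.0, 53.1 and 54.7 FPKM against 48.6, 50.7 and 48.2 FPKM. Its groups did not overlap, yet the log2 fold change was only 0.12 ± 0.03 (limma adjusted p = 0.0221).

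As a description, the called CYP4F genes were set against CYP4F11 within each library, with 0.1 FPKM added to both genes, which shrinks the ratios of low genes. On this scale the log2 ratio of CYP4F8 to CYP4F11 was -4.58 ± 0.0913 (SD, n = 3) in the silenced and -6.20 ± 0.118 in the control libraries, a difference of 1.63. For CYP4F12 the difference in log2 ratio was 1.40 and for CYP4F3 it was 0.44. These genes were picked by their calls, so the direction of each ratio restates those calls. An exact two-sided permutation test of each gave p = 0.10, the smallest that 3 against 3 libraries can give, and adds nothing to the calls.

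Coding sequences of the 6 CYP4F genes in GENCODE 29 were identical at 67.8% (CYP4F8 and CYP4F22) to 94.7% (CYP4F2 and CYP4F3) of aligned bases. No run of 100 bases in the transcripts of CYP4F8, CYP4F11 or CYP4F12 occurred in another gene, and for CYP4F3 the share of such runs found elsewhere was 1.56%, all of it in CYP4F2. Of the 21 other genes in the block only 2 reached a mean of 1 FPKM. UCA1, a long noncoding RNA gene between CYP4F12 and CYP4F2, went the other way with 8.26, 7.30 and 7.37 FPKM against 10.8, 10.1 and 10.6 FPKM, a log2 fold change of -0.46 ± 0.06 (limma adjusted p = 0.00132) that did not reach the fold threshold. The processed pseudogene AC005336.1 differed by 0.16 on the log2 scale.

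Of the P450 enzymes that act on retinoids, CYP26B1 and CYP27C1 were tested beside CYP1B1, CYP26A1 was detected and CYP26C1 held only traces. CYP26B1 (ENSG00000003137), which clears retinoic acid, stood at 2.58, 2.64 and 2.48 FPKM in BrM3-shAKR1B10 and at 1.74, 1.54 and 1.77 FPKM in BrM3-shNC. The groups did not overlap, and CYP26B1 was called higher with a log2 fold change of 0.58 ± 0.09 (SE; limma adjusted p = 0.00242). CYP27C1 (ENSG00000186684), a retinoid desaturase, was the only tested member called lower, at 2.71, 2.55 and 2.36 FPKM against 4.64, 4.36 and 4.97 FPKM. All silenced libraries lay below all controls, and its log2 fold change was -0.85 ± 0.08 (limma adjusted p = 0.000309).

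CYP26A1 (ENSG00000095596), the other main retinoic acid hydroxylase, was below the level tested. Its reads numbered 5, 3 and 3 in BrM3-shAKR1B10 and 27, 20 and 20 in BrM3-shNC. The silenced libraries sat at or just above 3 reads, and the ratio of mean FPKM was 0.165. CYP26A1 entered the following fits only through its level in the controls. With all genes of at least 0.1 FPKM in the fit, its log2 fold change was -1.62 ± 0.28 (limma adjusted p = 0.00787), and with limma's voom on recovered reads it was -2.43 ± 0.41 (adjusted p = 9.4e-05). With 0.1 FPKM added to both genes, the log2 ratio of CYP26B1 to CYP26A1 was 3.99 ± 0.183 (SD, n = 3) in silenced and 1.78 ± 0.191 in control libraries, a difference of 2.20 that is smaller than without the added value, since CYP26A1 lay below 0.1 FPKM in the silenced cells. AL358613.3, which shares 25.2% of the exonic bases of CYP26A1 on the same strand, had no read.

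CYP11A1, CYP39A1 and CYP2R1 act on sterols or vitamin D and were tested without being called. CYP11A1, which cleaves the side chain of cholesterol, stood at 1.52, 1.68 and 1.55 FPKM against 0.983, 0.982 and 1.37 FPKM, without overlap. Its log2 fold change of 0.49 ± 0.16 (limma adjusted p = 0.0496) fell just short of the fold threshold, and it was called under TPM, a pseudocount of 0.01, scaling to total reads, voom and without the third BrM3-shNC library. Genes on the opposite strand cover 28.96% of its exonic bases. CYP39A1, an oxysterol hydroxylase of bile acid synthesis, differed by 0.16 (95% interval -0.13 to 0.44), and CYP2R1, a vitamin D hydroxylase, by -0.03 (-0.36 to 0.30). For CYP39A1 the difference was 0.068 without the third BrM3-shNC library, 0.090 without the third BrM3-shAKR1B10 library and 0.256 without the first. Both genes overlapped between the groups, and for CYP2R1 the sign itself changed with the scaling.

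Of the fatty acid hydroxylases and epoxygenases outside the CYP4F block, CYP4V2 and CYP2J2 were tested. CYP4V2, which acts on fatty acids and is the gene of Bietti crystalline dystrophy, stood at 2.36 to 2.53 FPKM in silenced and 1.71 to 2.08 FPKM in control libraries (log2 fold change 0.37 ± 0.10, limma adjusted p = 0.0207). CYP2J2, which epoxidises arachidonic acid, stood at 2.09 to 2.30 against 1.68 to 1.80 FPKM (0.33 ± 0.08, limma adjusted p = 0.0195). Neither overlapped between the groups, and neither reached the fold threshold.

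CYP2D6 (ENSG00000100197), which oxidises many drugs such as codeine, was called higher by the narrowest margin. It stood at 3.89, 3.83 and 3.67 FPKM in BrM3-shAKR1B10 and at 3.01, 2.44 and 2.53 FPKM in BrM3-shNC. The groups did not overlap, and the log2 fold change was 0.501 ± 0.09 (SE; limma adjusted p = 0.00477). Leaving out the first or the second BrM3-shAKR1B10 library or the second or the third BrM3-shNC library brought it to 0.484, 0.495, 0.445 and 0.470, under the threshold. Runs of 100 bases shared with the pseudogenes CYP2D7 and CYP2D8P made up 13.5% of those in its transcripts. Its count is therefore uncertain, by an amount that was not measured.

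CYP2S1, an enzyme of epithelia outside the liver, stood at 7.75 to 8.28 FPKM in silenced and 8.80 to 9.44 FPKM in control libraries, and its log2 fold change of -0.19 ± 0.05 (limma adjusted p = 0.0157) was small. CYP20A1, a P450 without a settled substrate, had the widest interval among the tested members. It stood at 2.55, 2.14 and 1.92 FPKM against 1.81, 1.46 and 0.979 FPKM, and its log2 fold change was 0.64 (95% interval 0.10 to 1.17, limma adjusted p = 0.0592). The groups did not overlap, but each spread more widely than the gap between their nearest libraries, at 1.92 and 1.81 FPKM. CYP20A1 was called under TPM, scaling to total reads, voom, a block for the replicate number (background 5.47% higher and 7.35% lower), protein-coding genes only and without the first BrM3-shNC library, and was not called under the other alternatives. Without the third BrM3-shNC library, its lowest, the log2 fold change was 0.41 (limma adjusted p = 0.102).

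The other detected P450 genes had means of 10.8 to 54.0 reads per library. With genes of at least 0.1 FPKM in the fit, 4 of all 12 detected members below 1 FPKM were called, CYP2A6 and CYP4B1 higher (background 4.87%) and CYP26A1 and SULT1A3 lower (5.34%), and with voom CYP8B1 and CYP2C8 were added to the higher ones (background 8.8% higher and 6.94% lower). CYP2A6 had a mean of at least 10 reads only through the silenced libraries, and CYP26A1 reached 10 reads and 0.1 FPKM only through the controls, so these counts are a description. CYP2A6, the nicotine oxidase, had 19, 16 and 17 reads in silenced and 4, 2 and 7 reads in control libraries, a gap without overlap (log2 fold change 1.41 ± 0.31 with genes of at least 0.1 FPKM in the fit, limma adjusted p = 0.019). Of its transcript runs of 100 bases, 8.42% also occurred in CYP2A7 or CYP2A13. CYP4B1, a P450 known from lung, had 66, 76 and 55 reads against 40, 42 and 45 reads and was higher in the same fit (0.56 ± 0.16, limma adjusted p = 0.0435), a call lost without a filter on low values (adjusted p = 0.088). CYP8B1, a hydroxylase of bile acid synthesis, had 39, 53 and 56 reads against 27, 34 and 29, and CYP2C8, which oxidises paclitaxel, had 29, 22 and 25 reads against 17, 11 and 16. CYP8B1 and CYP2C8 did not overlap between the groups and were called by voom (limma adjusted p = 0.0163 and 0.0387) but not with log2(FPKM + 0.1). ACKR2, on the opposite strand, covers 3.197% of the exonic bases of CYP8B1. It had a mean of 339.7 reads in silenced and 232 in control libraries, so with strand handling unknown the CYP8B1 count is uncertain.

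CYP2U1, a fatty acid hydroxylase, had 23 to 38 reads in silenced and 30 to 44 in control libraries. CYP27B1, which makes the hormone form of vitamin D, had 10 to 20 and 10 to 18 reads, and CYP2W1, known from fetal gut and tumours, had 14 to 18 and 10 to 30. CYP4X1, with no settled role, had 9 to 21 and 6 to 15 reads, and CYP3A5, a drug oxidase, had 15 to 19 and 5 to 22. All of these overlapped between the groups, and no difference was detectable at this depth.

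**Figure D3:**
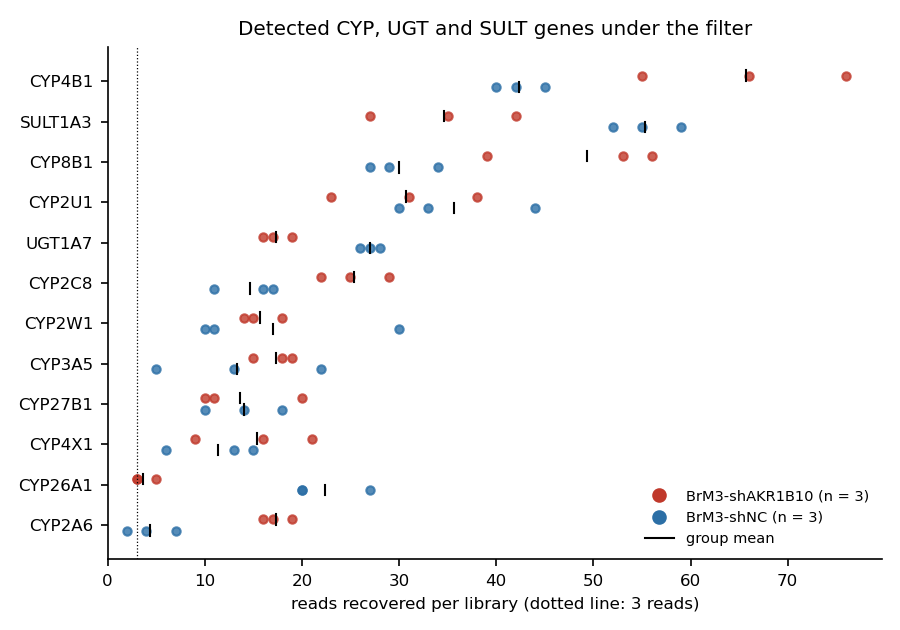
Reads per library for the 12 members detected below a mean of 1 FPKM, with 1 point per library, a black bar at each group mean and a dotted line at 3 reads. CYP26A1 sits near the line in BrM3-shAKR1B10 and at 20 to 27 reads in BrM3-shNC, CYP2A6 is placed the other way round, and SULT1A3 and UGT1A7 are lower in the silenced cells without overlap.

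The UGT family was carried by the UGT1A locus on chromosome 2, where separate starts are joined to shared last exons. UGT1A1 (ENSG00000241635), which conjugates bilirubin, stood at 6.84, 6.86 and 7.86 FPKM in BrM3-shAKR1B10 and at 9.61, 8.64 and 8.89 FPKM in BrM3-shNC. Its groups did not overlap, and its log2 fold change of -0.33 ± 0.07 (SE; limma adjusted p = 0.0103) did not reach the fold threshold. UGT1A6 (ENSG00000167165), which conjugates simple phenols, stood at 3.70, 4.88 and 5.18 FPKM against 5.25, 5.05 and 5.44 FPKM, and its groups overlapped (-0.20, 95% interval -0.50 to 0.09). Without the first BrM3-shAKR1B10 library, its lowest, the difference was -0.059. UGT1A7, an enzyme of the upper gut and airway, had 17, 16 and 19 reads against 27, 26 and 28 reads, without overlap (-0.48 ± 0.22, limma adjusted p = 0.172 with genes of at least 0.1 FPKM).

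The shared exons make up 49.8% of the exonic bases of UGT1A1, 44.0% of those of UGT1A6 and 40.6% of those of UGT1A7. UGT1A8 and UGT1A9, which share these exons, had no read in any library, so reads there were not credited to every gene of the locus. How such reads were handled is not stated, so the FPKM of these 3 genes, taken over the full gene length, is uncertain. A further 20.46% of UGT1A6 lies opposite AC114812.1 and AC114812.2. No member of the UGT2 group and not UGT8 was tested or detected.

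SULT2B1 (ENSG00000088002), which sulfates cholesterol and other hydroxysteroids, was the one sulfotransferase called. It stood at 4.61, 4.79 and 5.28 FPKM in BrM3-shAKR1B10 and at 3.05, 2.89 and 3.30 FPKM in BrM3-shNC. All silenced libraries lay above all controls, with a log2 fold change of 0.65 ± 0.08 (SE; limma adjusted p = 0.000839). No other gene overlaps its exons and none shares a run of 100 bases with it. Its position is chromosome 19, from 48552075 to 48599425, plus strand, outside the CYP4F block.

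The phenol sulfotransferases SULT1A1, SULT1A2 and SULT1A3 sit on chromosome 16 and are close copies. SULT1A1 stood at 12.1, 10.9 and 11.1 FPKM against 8.88, 9.74 and 9.37 FPKM, without overlap (log2 fold change 0.28 ± 0.06, limma adjusted p = 0.0088). SULT1A2 stood at 9.20 to 9.91 and 9.10 to 9.88 FPKM, with a difference of 0.00 (95% interval -0.12 to 0.12) and no fixed sign. The dopamine sulfotransferase SULT1A3 had 27, 42 and 35 reads against 59, 55 and 52, without overlap (-0.63 ± 0.17, limma adjusted p = 0.0397 with genes of at least 0.1 FPKM), a call lost without that filter (adjusted p = 0.0745). Coding sequences of SULT1A1 and SULT1A2 were identical at 96.8% of bases, and 80.4% of the 100-base runs of SULT1A3 occur in other genes, among them SULT1A4, so the SULT1A3 count is uncertain. SULT4A1, a brain-enriched member without a known reaction, overlapped between the groups (0.17, 95% interval -0.24 to 0.59), and its difference was 0.038 without the third and 0.285 without the second BrM3-shNC library.

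Related genes were read from 5 lists with 96 genes in the table, of which 61 were tested. The lists hold redox partners, regulators and cosubstrate genes, and also other oxidation, hydrolysis and conjugation enzymes that act beside the 3 families. Of the 61, 12 were called higher and 1 lower, with a median log2 fold change of 0.10. The same background applies, 5.83% and 7.45% of all genes tested.

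Among 8 tested redox partners the one called was CYB5R1, a cytochrome b5 reductase relative, at 10.7 to 10.9 FPKM in silenced and 6.497 to 7.81 FPKM in control libraries (log2 fold change 0.59 ± 0.07, limma adjusted p = 0.000766). POR, the reductase that supplies microsomal P450 enzymes, stood at 35.7 to 37.1 and 34.6 to 38.8 FPKM, overlapping, with a log2 fold change of -0.01. PGRMC1, a heme-binding partner of P450 enzymes, differed by -0.35 without reaching the fold threshold.

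Among 14 tested genes of the regulator list, which also holds the receptor's targets ALDH3A1 and TIPARP, 2 were called higher, 1 a regulator and 1 a target enzyme. AHRR, the repressor and target of the aryl hydrocarbon receptor, stood at 4.12, 4.23 and 4.43 FPKM in BrM3-shAKR1B10 and at 1.68, 1.25 and 1.46 FPKM in BrM3-shNC. The groups were far apart (log2 fold change 1.49 ± 0.11, limma adjusted p = 0.000139). ALDH3A1, an aldehyde dehydrogenase of the same receptor's target set, stood at 161, 154 and 160 FPKM against 86.3, 95.9 and 93.1 FPKM (0.78 ± 0.05, limma adjusted p = 5.48e-05). AHR itself differed by 0.30, its partner ARNT by -0.30 and the target TIPARP by 0.43, none past the fold threshold. NFE2L2 and KEAP1, which govern the antioxidant response, differed by -0.05 and -0.03. The xenobiotic and liver regulators NR1I2, NR1I3 and HNF4A held at most 0.171 FPKM in any library, and NR1H4 had none.

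Among 11 tested genes of cosubstrate supply and removal, PAPSS2, a synthase of the sulfate donor PAPS, was called higher at a mean of 12.8 ± 0.309 FPKM (SD, n = 3) against 8.52 ± 0.706 FPKM (0.59 ± 0.06, limma adjusted p = 0.000644). UGDH, which makes UDP-glucuronic acid, was abundant at 144 to 154 FPKM in silenced and 179 to 184 FPKM in control libraries (-0.29 ± 0.03, limma adjusted p = 0.000905). UGP2, the step before it, differed by -0.39. Both lay below the controls in every silenced library without reaching the fold threshold.

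Among 15 tested conjugation enzymes outside the 3 families, 5 were called higher and HNMT, the histamine methyltransferase, was called lower (-0.88 ± 0.07, limma adjusted p = 0.000163). GSTM1, a glutathione transferase, stood at 74.3, 82.6 and 83.7 FPKM against 46.1, 42.8 and 41.0 FPKM (0.89 ± 0.06, limma adjusted p = 0.00011). Its neighbours GSTM2, GSTM3 and GSTM4 were higher by 0.82, 0.82 and 0.59, and the acetyltransferase NAT1 by 0.64. The GSTM genes are close copies, and their counts may share reads. Among 13 tested oxidation and hydrolysis enzymes 3 were called higher, the flavin monooxygenase FMO5 (0.62), the xanthine dehydrogenase XDH (0.61) and the carboxylesterase CES3 (0.54, and 0.49 without the second BrM3-shNC library).

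**Figure D4:**
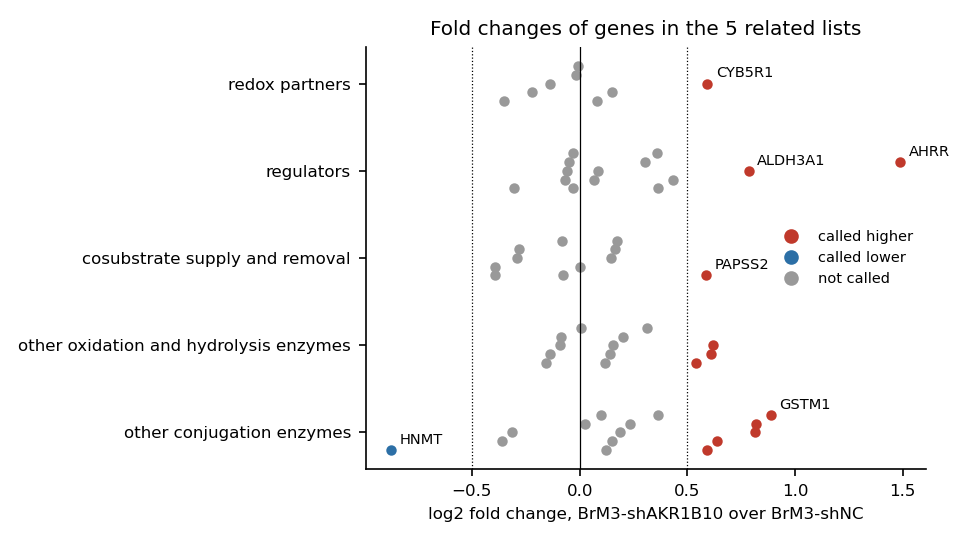
Log2 fold changes of the 61 tested genes of the 5 lists, 1 point per gene, with dotted lines at the fold threshold of 0.5 in either direction. Red points mark the 12 called higher, with AHRR farthest out at 1.49, and the blue point marks HNMT at -0.88.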

How the data were processed

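Poly-A RNA of 3 BrM3-shAKR1B10 and 3 BrM3-shNC libraries was sequenced. Per the labels the authors aligned reads with HISAT2 2.0.5 and counted them with featureCounts 1.5.0-p3, and they deposited gene FPKM values, not pooled, with gene lengths. Handling of strand, of multiply placed reads and of reads on shared exons is not given in the sources used here. All 58735 genes match GENCODE 29 positions (GRCh38). FPKM times gene length times a library size estimated from the values gave whole reads (within 0.01) for 100% of values.

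The 13150 genes whose FPKM averaged 1 or more were fitted by limma 3.58.1 (R 4.3.3; lmFit, eBayes with trend) as log2(FPKM + 0.1), and p-values were adjusted by Benjamini-Hochberg over all of them. Since FPKM were deposited, a fold change is on this scale and understates the change of low genes. Intervals and read floors cover counting error or library spread only. Scripts were tested on simulated data.

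Named genes were AKR1B10, all tested and detected members, and called partner genes. Marker genes and those overlapping a member follow from the lists and annotation, and uncalled partner genes, genes of the CYP4F block and any other gene were chosen for naming after their values were seen. One gene of the lists is not reported here. Members and lists were chosen with earlier results of these data known. Alternatives were pseudocounts of 0.01 and 1, other filters, scalings and thresholds, voom, a replicate block, protein-coding genes only, and each library left out. Deviations of same-numbered libraries correlated at -0.0155, 0.00388 and 0.00383, within the range of the other pairs (-0.0386 to 0.0363). No pairing by number was seen, and with 3 libraries per group this cannot exclude it. RefSeq windows (GRCh38.p14) were searched in Python 3.11.15.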

Additional observations from a re-analysis of the deposited data

How the results depend on the processing

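Against 7 members higher and 1 lower, a log2 fold change above 1 gave 3 and 0 (1.28% and 1.56% of all genes). A mean FPKM of at least 5 gave 2 and 0 (3.94% and 7.23%), and the adjusted p alone 12 and 3 (19.4% and 23.1%). Voom on recovered reads, which tests 33 members, gave 13 and 3 (8.8% and 6.94%). A mean FPKM of at least 0.1 gave 9 and 3 (4.87% and 5.34%) and no filter 8 and 2 (2.98% and 3.44%). Those alternatives test other genes or use another threshold. Voom is also another model, and it added CYP11A1 and CYP20A1, which the main fit tested without calling them. Against 12 partner genes higher and 1 lower, the fold threshold of 1 gave 1 and 0 (1.28% and 1.56% of all genes), the filter at 5 gave 6 and 0 (3.94% and 7.23%), the adjusted p alone 26 and 10 (19.4% and 23.1%), and voom, the filter at 0.1 and no filter each 2 lower (6.94%, 5.34% and 3.44%). The replicate block gave 8 members higher and 1 lower (5.47% and 7.35% of all genes), with CYP20A1 added and no other call changed. With TPM the higher count was 9 (6.86% of all genes) and with quantile scaling 6 (5.76%). Leaving out 1 library gave 6 to 8 members higher (4.99% to 5.77%). CYP1B1, CYP4F8 and CYP4F12 kept their call in each alternative run for them, CYP26B1 lost it with a pseudocount of 1 (0.41) and CYP2D6 with a pseudocount of 1 (0.39) and quantile scaling (0.50).

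The sign of SULT1A2 turned to 0.034 with TPM, 0.029 with quantile scaling, 0.045 with scaling to total reads and 0.043 with voom, and ranged from -0.042 to 0.026 with a library left out. That of CYP2R1 turned to 0.007, 0.017 and 0.026 with TPM, total reads and voom, and ranged from -0.125 to 0.090; the cause was not tested for either. Read counts limit the detected members under 1 FPKM, most of all CYP26A1 with 3 to 5 reads in silenced and CYP2A6 with 2 to 7 in control libraries.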

Other observations

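Pseudogenes and antisense genes named for the 3 families, which the choice of members leaves out, numbered 66, of which 40 had no read in any library and 4 were tested. UGT1A2P, an unprocessed pseudogene within the UGT1A locus, was called higher at 2.81, 3.13 and 3.91 FPKM in BrM3-shAKR1B10 and 2.58, 2.12 and 1.71 FPKM in BrM3-shNC (log2 fold change 0.60 ± 0.18 SE, limma adjusted p = 0.0318), whereas UGT1A1 on the same strand differed by -0.33. CYP2T1P, CYP2D7 and CYP2D8P were tested and not called.

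Some rows below the level tested, chosen after their values were seen, were also apart. CYP4Z2P, a transcribed pseudogene on chromosome 1, had 25, 22 and 31 reads in silenced and 3, 2 and 7 reads in control libraries. CYP2F2P, on chromosome 19, had 31, 27 and 14 reads against 7, 9 and 9. CYP1B1-AS1, antisense to CYP1B1, had 106, 88 and 85 reads against 57, 51 and 73. ARNT2, a relative of ARNT, stood at 0.161, 0.172 and 0.197 FPKM against 0.507, 0.634 and 0.439 FPKM. None of these 4 differences was tested in the same fit.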
